A study of Saccharomyces cerevisiae with 4 samples.

Results

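The genes described here are 53 budding yeast (Saccharomyces cerevisiae) genes for the synthesis of amino acids other than arginine and the sulfur amino acids, taken by symbol from the array's probe annotation. They comprise 7 histidine, 5 leucine, 7 isoleucine and valine, 9 lysine, 5 tryptophan, 6 aromatic, 5 threonine, 4 serine and 2 asparagine genes, the vitamin B6 genes SNZ1 and SNO1, and GCN4. All 53 had a probe set of their own without a suffix for shared sequence, among 5656 genes tested. They were grouped by pathway, with earlier results of these arrays known, among them the rises of arginine and sulfur genes. Labelled RNA of each culture was hybridised to 1 Affymetrix array, 4 in all, and 1 colour was read. Of the arrays, 2 were from cells whose histone H3 carries arginine at lysines 4, 36 and 79 (the H3 K4,36,79R mutant), and 2 were from wild-type cells. Per the labels, both groups grew in selective galactose medium and were then kept in selective glucose medium for 9 h, which shuts off the wild-type H3 gene and leaves the mutant H3 as the sole source in the mutant cells. Neither the amino acids missing from the selective medium nor the auxotrophic markers of the strains are given in the sources used here. The series text calls the arrays of a group replicate cultures.

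Yeast makes all of these amino acids from intermediates of central carbon metabolism. Most of the enzyme genes share the activator Gcn4, whose mRNA is translated more when uncharged tRNA activates the kinase Gcn2, and some pathways have activators of their own, such as Leu3 for the leucine branch and Lys14 for lysine. The lysines replaced here carry methyl marks that Set1, Set2 and Dot1 place over transcribed genes.

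Signals are MAS5 intensities divided by the array median and brought to a common median. Log2 changes are mutant minus wild type of signal plus a pseudocount of 5.71, with 95% intervals and Benjamini-Hochberg adjusted p over all genes from limma. Deposited medians were 27.8 to 29.7 in the mutant arrays and 37.3 to 38.4 in the wild-type arrays. Probe sets for histone H3 are annotated to both of its genes and disagreed in direction, so they did not check the labels. One gave 144 and 122 in the mutant arrays against 483 and 497 in the wild-type arrays, and the brightest gave 5308 and 2574 against 3098 and 2357. GAL1, the galactokinase gene that glucose represses, read 8.66 and 7.88 in the mutant arrays and 5.54 and 3.56 in the wild-type arrays, near the pseudocount in both groups. Control probe sets for ribosomal RNA, 10 in number, all read higher on each mutant array than on either wild-type array (median log2 change 1.43), and their part in the results below was not tested. With 2 arrays a group, an exact permutation test cannot give a p under 0.333.

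No member of these pathways passed the test. In limma, 0 of 53 were called at an adjusted p under 0.05, where 1.03% of all genes were called higher and 0.849% lower, 1.87% in all. Without the trend in limma's variance the count was 0 too, and with its robust setting it was 1 (TRP1). At an unadjusted p under 0.05 there were 7 members (HIS3, TRP1, TRP3, ARO7, SER2, SNZ1 and SNO1), which is 13.2% of the list, and 23.2% of all genes tested. The median log2 change was 0.041 over the members and 0.018 over all genes, and 30 of 53 members lay above 0 (56.6%, against 52.1% of all genes). The arrays read RNA of whole cultures, so fewer cells expressing a gene and less RNA per cell cannot be told apart.

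Both mutant arrays lay above both wild-type arrays for 16 members (30.2%, against 28.1% of all genes) and below them for 9 (17.0%, against 27.2%). Log2 changes ran from -0.54 for SER2 to 0.80 for TRP1, with an SD of 0.30 over the members and 0.41 over all genes. A change over 0.5 in size was seen in 6 members (11.3%, against 18.3% of all genes), and none exceeded 1 (a 2-fold change) at this scaling and pseudocount. The SDs and these shares too were not matched for signal level. Under other settings TRP1 reached 1.27 with 0.5 times the pseudocount and 1.02 on the deposited values relative to all genes, and without wild type replicate 1 SNZ1 reached 1.07 and SNO1 1.09. The half-width of the 95% interval ran from 0.35 to 0.68, with a median of 0.46 over the members and 0.41 over all genes. For 48 members the whole interval lay between -1 and 1, and for HIS3, TRP1, ARO4, SNZ1 and SNO1 it reached past one of these limits.

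Without scaling, on the deposited values, all genes together had a median log2 change of -0.32. The same fit called 66 of all 5656 genes higher and 1065 lower. Among these were TRP1 (higher) and HIS6, LEU1, LYS12, ARO4, ARO7 and SER2 (lower). With wild type replicate 1 left out, the log2 changes of TRP1, SNZ1 and SNO1 were 0.81, 1.07 and 1.09. With wild type replicate 2 left out, they were 0.79, 0.34 and 0.29. Without either mutant array 0 of all 5656 genes passed, members included.

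**Figure D1:**
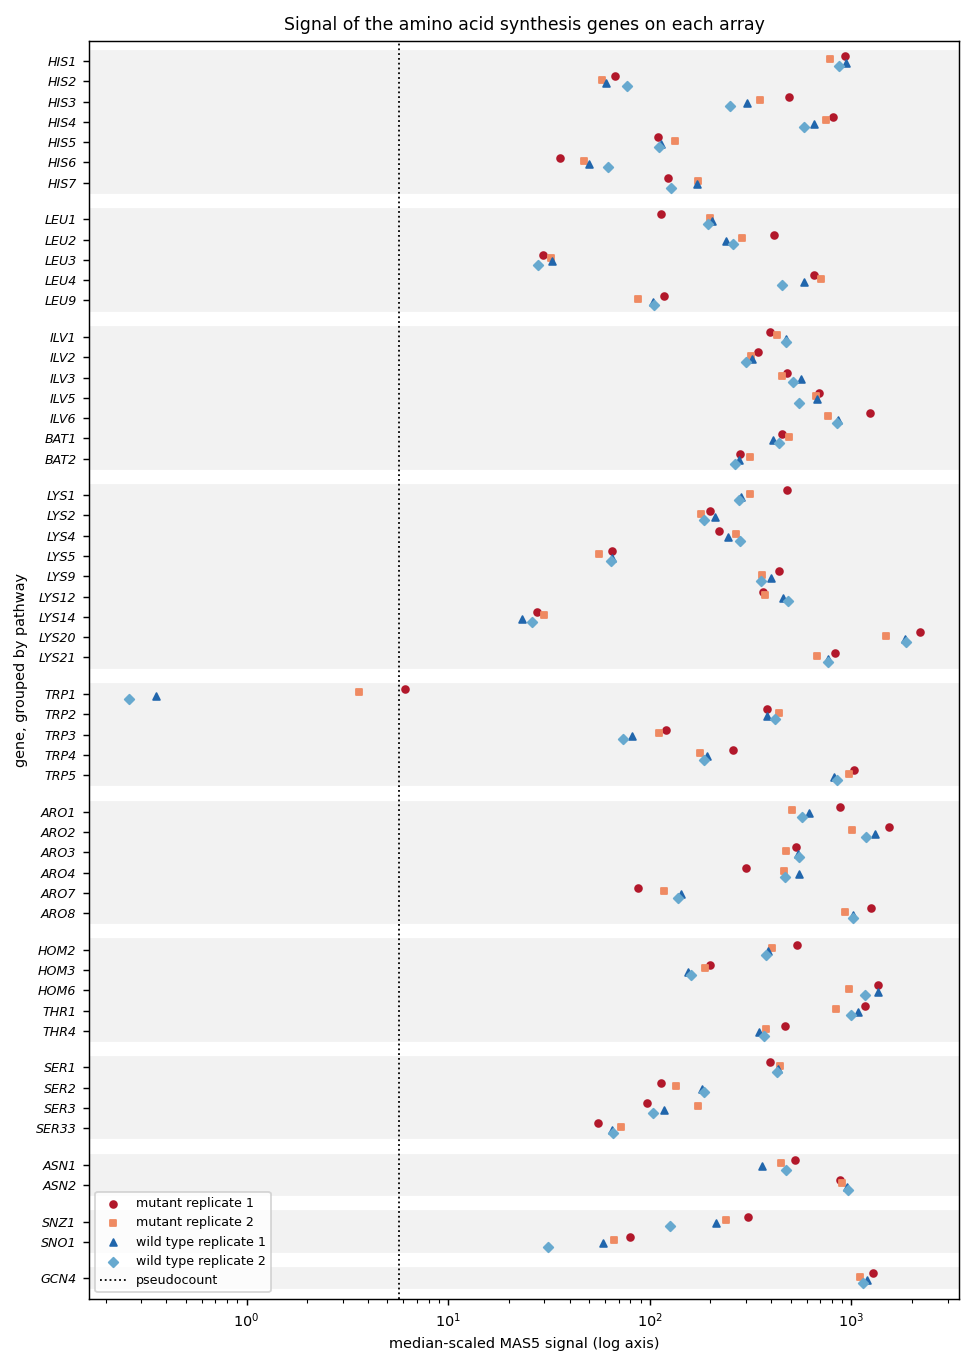
Median-scaled MAS5 signal (log axis) of each of the 53 genes on the 2 mutant and 2 wild-type arrays, grouped by pathway, with the pseudocount of 5.71 dotted. TRP1 is the only gene with a mean signal below the pseudocount, and the 4 points of most other genes lie close together.

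**Figure D2:**
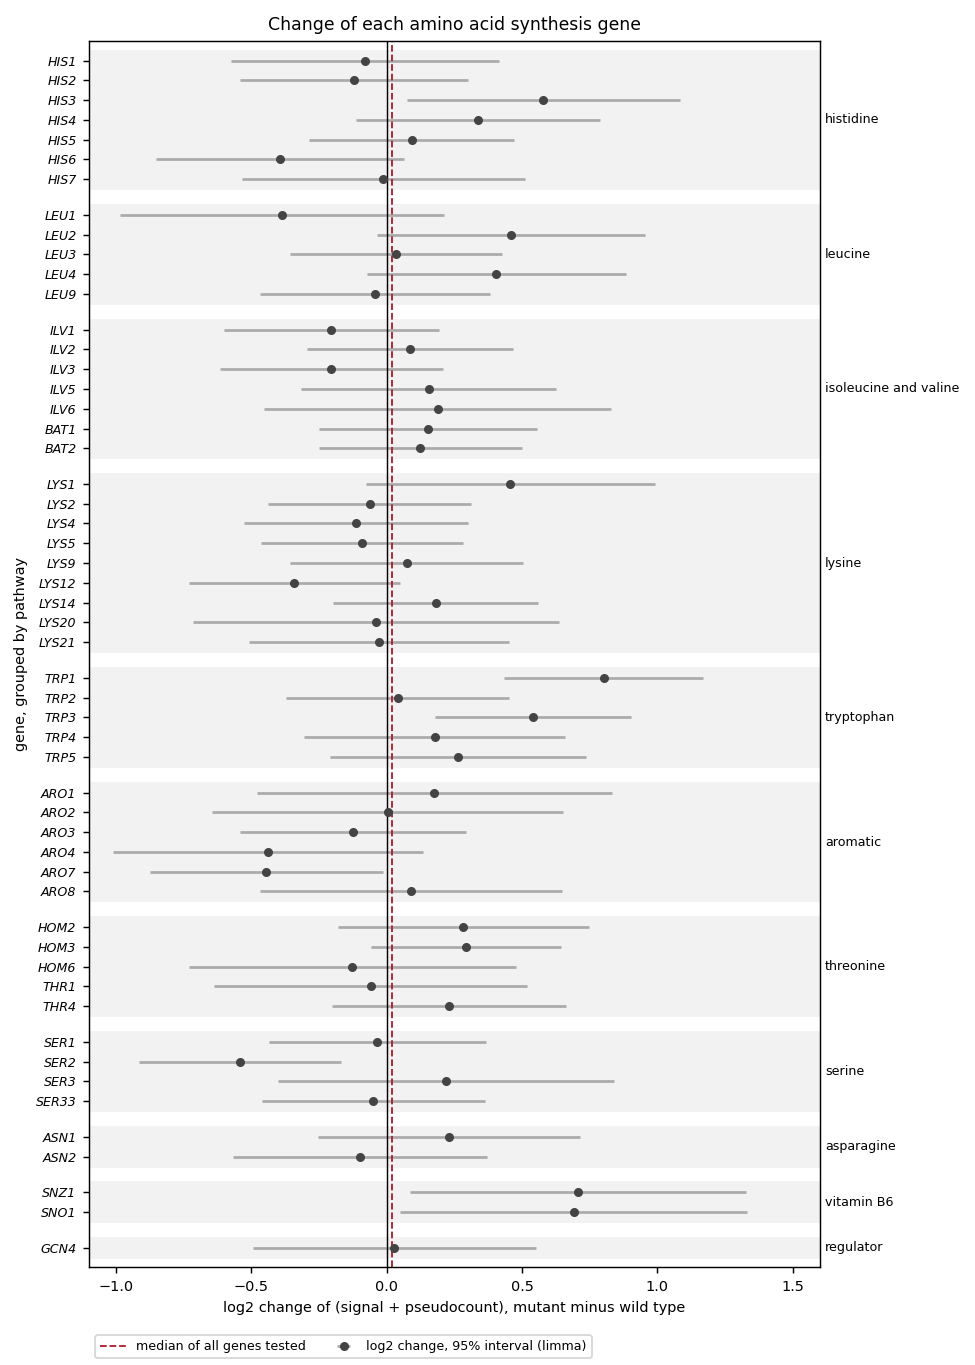
Log2 change of signal plus pseudocount (mutant minus wild type) of each gene with its 95% interval from limma, grouped by pathway, with the median of all genes tested dashed. Intervals of 46 genes include 0, and those of HIS3, TRP1, TRP3, SNZ1 and SNO1 lie above it and those of ARO7 and SER2 below it.

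The 7 histidine genes had log2 changes on both sides of 0, with a median of -0.012. HIS3, the imidazoleglycerol-phosphate dehydratase gene and a common strain marker, gave 489 and 354 in the mutant arrays and 305 and 251 in the wild-type arrays. The groups did not overlap, and the log2 change was 0.58 (95% interval 0.074 to 1.08, adjusted p = 0.170). A second HIS3 probe set gave 126 and 91.3 in the mutant and 75.2 and 78.8 in wild type, a log2 change of 0.45, so both sets read higher in the mutant arrays without a call.

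HIS4, whose protein carries several activities of the pathway, gave 812 and 748 in the mutant against 649 and 585 in wild type, a log2 change of 0.34 (95% interval -0.11 to 0.79, adjusted p = 0.335). HIS6, the isomerase gene, went the other way, with 35.7 and 47.0 in the mutant against 49.8 and 62.1 in wild type and a log2 change of -0.39 (95% interval -0.85 to 0.065, adjusted p = 0.275). In both genes the groups did not overlap. HIS1, for the phosphoribosyltransferase of the first step, gave 934 and 780.3 in the mutant arrays and 936 and 872 in the wild-type arrays, a log2 change of -0.081 (95% interval -0.58 to 0.41). The other steps lay close to wild type, with -0.12 for the phosphatase gene HIS2, 0.092 for the aminotransferase gene HIS5 and -0.012 for the amidotransferase and cyclase gene HIS7, and their groups overlapped. Genes of the same linear pathway thus had changes from -0.39 to 0.58, none past the test.

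The leucine branch had a median log2 change of 0.035. LEU4, for the main isopropylmalate synthase at the head of the branch, gave 651 and 709 in the mutant arrays and 579 and 452 in the wild-type arrays, a log2 change of 0.41 (95% interval -0.075 to 0.88, adjusted p = 0.281). Its groups did not overlap, while those of LEU9, the other synthase gene, did, with 117 and 87.3 in the mutant against 104 and 105 in wild type and a log2 change of -0.043 (95% interval -0.47 to 0.38). LEU1, the isomerase gene, gave 114 and 198 in the mutant against 203 and 194 in wild type. Only mutant replicate 1 was low, and the log2 change of -0.39 (95% interval -0.99 to 0.21, adjusted p = 0.404) was 0.00040 without that array.

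LEU2, for the dehydrogenase and another common marker, gave 414 and 287 in the mutant arrays and 239 and 260.2 in the wild-type arrays. The groups did not overlap, with a log2 change of 0.46 (95% interval -0.035 to 0.96, adjusted p = 0.241). The 2 other LEU2 probe sets, both with suffixes, gave log2 changes of 0.27 and -0.15, so the LEU2 sets differ in sign. LEU3, the activator of the branch, gave 29.7 and 32.5 in the mutant against 32.8 and 27.8 in wild type, a log2 change of 0.035 (95% interval -0.36 to 0.43), and its groups overlapped.

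The isoleucine and valine genes were the most even of the pathways with more than 2 genes, with log2 changes from -0.21 to 0.19 and an SD of 0.17. ILV1, for the threonine deaminase that starts isoleucine synthesis, gave 394 and 427 in the mutant arrays and 472 and 475 in the wild-type arrays, a log2 change of -0.21 (95% interval -0.60 to 0.19, adjusted p = 0.506). ILV3, the dihydroxyacid dehydratase gene, gave 479.5 and 455 in the mutant against 564 and 516 in wild type, a log2 change of -0.21. Both were lower on both mutant arrays by less than the test can call.

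ILV2 and ILV6 encode the catalytic and the regulatory subunit of acetolactate synthase, and had log2 changes of 0.087 and 0.19. ILV6 gave 1238 and 763 in the mutant arrays and 859 and 846 in the wild-type arrays, so mutant replicate 1 alone was high. The reductoisomerase gene ILV5 had 0.16. The aminotransferase genes BAT1, for the mitochondrial enzyme, and BAT2, for the cytosolic one, had 0.15 (95% interval -0.25 to 0.55) and 0.12 (95% interval -0.25 to 0.50), and in both genes the mutant arrays were above the wild-type arrays. BAT1 gave 451 and 489 in the mutant against 409 and 436 in wild type, and BAT2 gave 281 and 313 in the mutant against 278 and 266 in wild type.

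Lysine synthesis, with the most genes here, had a median log2 change of -0.039, with 3 of 9 genes above 0. LYS1, one of the saccharopine dehydrogenase genes of the final steps, gave 479 and 313 in the mutant arrays and 283 and 277 in the wild-type arrays. The log2 change was 0.46 (95% interval -0.076 to 0.99, adjusted p = 0.276), and mutant replicate 1 stood above the other arrays. LYS9, the other such gene, had 0.074 with groups that overlapped.

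LYS12, the homoisocitrate dehydrogenase gene, gave 366 and 373 in the mutant arrays and 458 and 482 in the wild-type arrays, so the groups did not overlap, with a log2 change of -0.34 (95% interval -0.73 to 0.048, adjusted p = 0.265). LYS4, for the homoaconitase of the step before, had -0.11, and LYS5, for the enzyme that activates Lys2, had -0.091. LYS2, the aminoadipate reductase gene and also a common marker, gave 199.7 and 179 in the mutant arrays and 209.7 and 186 in the wild-type arrays, a log2 change of -0.063 (95% interval -0.44 to 0.31). The homocitrate synthase genes of the first step had -0.039 (LYS20) and -0.028 (LYS21). LYS20 gave 2186 and 1493 in the mutant arrays and 1847 and 1866 in the wild-type arrays, and LYS21 gave 832 and 679 in the mutant against 769 and 764 in wild type, so that in both genes mutant replicate 1 was the highest and mutant replicate 2 the lowest of the 4 arrays. LYS14, the pathway's activator, gave 27.5 and 29.9 in the mutant against 23.2 and 26.1 in wild type, a log2 change of 0.18 (95% interval -0.20 to 0.56).

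All 5 tryptophan genes had log2 changes above 0, where 52.1% of all genes did, and 0 passed the test. Their median was 0.26, and 0.22 with the filter on dim genes, which removed TRP1. But TRP2 (-0.033) lay below 0 on the values as deposited relative to all genes, and TRP2 and TRP4 did so with an array left out. TRP3, which encodes a subunit of anthranilate synthase fused to the indole-glycerol-phosphate synthase, gave 121 and 111 in the mutant arrays and 82.0 and 73.7 in the wild-type arrays. The groups did not overlap, and the log2 change was 0.54 (95% interval 0.18 to 0.90, adjusted p = 0.109). TRP5, the tryptophan synthase gene, gave 1029.8 and 971 in the mutant against 817 and 847 in wild type, a log2 change of 0.26 (95% interval -0.21 to 0.74), again without overlap.

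TRP2, for the other anthranilate synthase subunit, gave 382 and 439 in the mutant against 381 and 417 in wild type, a log2 change of 0.041, and the phosphoribosyltransferase gene TRP4 had 0.18, both with overlapping groups. TRP1, the phosphoribosylanthranilate isomerase gene and a common marker, gave 6.09 and 3.61 in the mutant arrays and 0.357 and 0.260 in the wild-type arrays. Of these 4 values 3 lie below the pseudocount, and the log2 change was 0.80 (95% interval 0.44 to 1.17, adjusted p = 0.0539). The size of this change followed the pseudocount, at 1.27 with 0.5 times, 0.47 with 2 times and 0.35 with a pseudocount of 16, so it is no measured size. The adjusted p of TRP1 ran from 0.000445 to 0.120 over the settings tried, and with 0.5 times the pseudocount it was 0.0483, past the threshold. Since TRP1 read near 0 in wild type, no ratio of its signals is given.

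The 6 genes of the common aromatic pathway and its branches had a median of -0.061. ARO7, for the chorismate mutase that leads to phenylalanine and tyrosine, gave 87.2 and 118 in the mutant arrays and 142 and 138 in the wild-type arrays. Both mutant arrays were lower, with a log2 change of -0.45 (95% interval -0.88 to -0.015, adjusted p = 0.203). ARO4 and ARO3 encode the DAHP synthases of the first step. ARO4 gave 299 and 463 in the mutant arrays and 549 and 467 in the wild-type arrays, a log2 change of -0.44 (95% interval -1.01 to 0.13, adjusted p = 0.321), and ARO3 gave 529 and 473 in the mutant against 545 and 547 in wild type, a log2 change of -0.13 (95% interval -0.54 to 0.29). Both mutant arrays were below both wild-type arrays in each gene, for ARO4 mostly through mutant replicate 1. ARO1, for a multifunctional enzyme of the middle steps, gave 883 and 510.1 in the mutant against 619 and 569 in wild type, a log2 change of 0.18. The chorismate synthase gene ARO2 had 0.0029 and the aminotransferase gene ARO8 had 0.089, and in all 3 genes the groups overlapped.

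In the threonine pathway 3 of 5 genes, HOM3, HOM2 and THR4, were higher on both mutant arrays without passing. Over all genes 28.1% were higher on both mutant arrays. The pathway median was 0.23. HOM3, for the aspartate kinase that starts the pathway, gave 199.5 and 188 in the mutant arrays and 154 and 159 in the wild-type arrays, a log2 change of 0.29 (95% interval -0.057 to 0.64, adjusted p = 0.284). HOM2, the semialdehyde dehydrogenase gene, gave 535 and 403 in the mutant against 385 and 377 in wild type, a log2 change of 0.28 (95% interval -0.18 to 0.75, adjusted p = 0.428). THR4, the threonine synthase gene, gave 468 and 376 in the mutant against 347 and 367 in wild type, a log2 change of 0.23 (95% interval -0.20 to 0.66, adjusted p = 0.491). In these 3 genes mutant replicate 1 was the highest array. HOM6, for the homoserine dehydrogenase shared with methionine synthesis, gave 1353 and 979 in the mutant against 1361 and 1163 in wild type, a log2 change of -0.13 (95% interval -0.73 to 0.48), and the homoserine kinase gene THR1 had -0.060. For HOM6 and THR1 the groups overlapped.

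Of the serine genes, SER2, for the phosphatase of the last step, had the lowest log2 change of all members. It gave 114 and 135 in the mutant arrays and 182 and 185 in the wild-type arrays, so the groups were apart, with a log2 change of -0.54 (95% interval -0.91 to -0.17, adjusted p = 0.113). The aminotransferase gene SER1 had -0.036 with overlapping groups. SER3 and SER33 encode the phosphoglycerate dehydrogenases of the first step. SER3 gave 96.7 and 173 in the mutant arrays and 118 and 103 in the wild-type arrays, a log2 change of 0.22 (95% interval -0.40 to 0.84), and its mutant arrays lay on either side of wild type. SER33 gave 55.4 and 71.6 in the mutant against 65.0 and 65.9 in wild type, a log2 change of -0.050 (95% interval -0.46 to 0.36), and did the same.

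The asparagine synthetase genes had 0.23 (ASN1) and -0.10 (ASN2). ASN1 gave 523 and 449.6 in the mutant arrays and 359 and 474 in the wild-type arrays, with overlap, and ASN2 gave 882 and 901 in the mutant against 950.3 and 961 in wild type, with both mutant arrays slightly lower.

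SNZ1 and SNO1, for the subunits of the pyridoxal phosphate synthase that supplies the cofactor of aminotransferases, had the highest log2 changes after TRP1. SNZ1 gave 309 and 240.0 in the mutant arrays and 214 and 127 in the wild-type arrays, and SNO1 gave 80.0 and 66.8 in the mutant against 58.9 and 31.2 in wild type. In both genes the 2 mutant arrays were above the 2 wild-type arrays, and the 4 arrays had the same order, with wild type replicate 2 lowest. The log2 change was 0.71 (95% interval 0.084 to 1.33, adjusted p = 0.174) for SNZ1 and 0.69 (95% interval 0.050 to 1.33, adjusted p = 0.190) for SNO1. The size depended on which wild-type array was read. Without wild type replicate 2 the changes were 0.34 (adjusted p = 0.793) and 0.29 (adjusted p = 0.805), and without wild type replicate 1 they were 1.07 (adjusted p = 0.0309) and 1.09 (adjusted p = 0.00856). The genes stand next to each other on the chromosome in the R64 gene table, on opposite strands by their systematic names (YMR096W and YMR095C). The flanking genes MTG1 and CTF13 had log2 changes of 0.19 and 0.32, neither called.

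GCN4 itself gave 1281 and 1109 in the mutant arrays and 1192 and 1147 in the wild-type arrays, a log2 change of 0.028 (95% interval -0.49 to 0.55, adjusted p = 0.955), with groups that overlapped. Its interval leaves room for a change of up to 0.55 upwards or -0.49 downwards on the log2 scale. Since Gcn4 is controlled at translation, its transcript does not report the amount of protein.

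The pathways were compared by their medians on each array, relative to each gene's wild-type mean. By construction the 2 wild-type medians of a pathway mirror each other around 0. For tryptophan the medians were 0.44 and 0.22 in the mutant arrays and 0.012 and -0.012 in the wild-type arrays, and for threonine they were 0.34 and 0.074 in the mutant arrays and 0.014 and -0.014 in the wild-type arrays. In both pathways each mutant array lay above both wild-type arrays. The same held for leucine, with 0.16 and 0.091 in the mutant arrays and 0.030 and -0.030 in the wild-type arrays. It held for the vitamin B6 pair too, with 0.85 and 0.55 in the mutant arrays and 0.38 and -0.38 in the wild-type arrays. For lysine the medians were 0.12 and -0.14 in the mutant arrays and 0.0049 and -0.0049 in the wild-type arrays, and for the aromatic genes 0.13 and -0.21 in the mutant arrays and 0.040 and -0.040 in the wild-type arrays. There the 2 mutant arrays lay on opposite sides of the wild-type mean, as they did for histidine and serine. Over all genes tested the medians were 0.071 and -0.030 in the mutant arrays and -0.0056 and 0.0056 in the wild-type arrays. The isoleucine and valine medians stayed within 0.095 of the wild-type mean on every array. With fewer than 10 genes in each pathway and 2 arrays a group, no test was made between pathways.

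**Figure D3:**
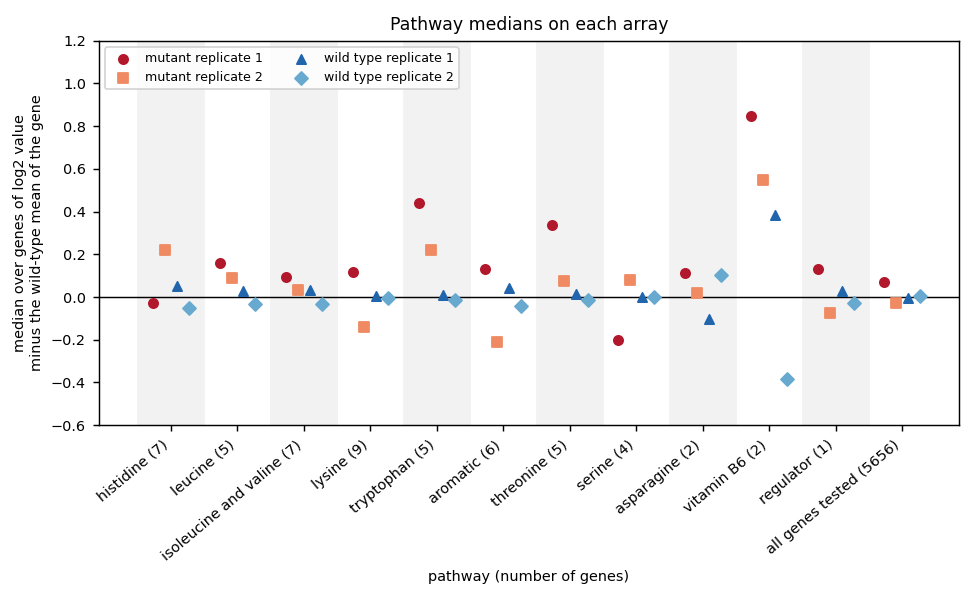
Median over the genes of each pathway of the log2 value minus the gene's wild-type mean, for each of the 4 arrays, with the number of genes in brackets and all genes tested at the right. The vitamin B6 pair stands highest in the mutant arrays and is spread widest in wild type, while the mutant arrays of the lysine, aromatic, histidine and serine genes lie on either side of 0.

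Duplicated enzymes were set against each other by the difference of their log2 changes (± SE from the 4 arrays), as a description with no test. The difference was 0.45 ± 0.32 for LEU4 minus LEU9 (0.19 to 0.71 with each array left out) and 0.33 ± 0.23 for ASN1 minus ASN2 (0.14 to 0.52). It was 0.27 ± 0.25 for SER3 minus SER33 (0.039 to 0.50), and for these 3 pairs the sign held with any array left out. It was 0.31 ± 0.41 for ARO3 minus ARO4 (-0.077 to 0.71, below 0 without mutant replicate 1), -0.011 ± 0.13 for LYS20 minus LYS21 (-0.14 to 0.12) and 0.027 ± 0.078 for BAT1 minus BAT2 (-0.049 to 0.10), and for these the sign depended on the array left out. A probe set annotated to both LYS20 and LYS21 had a log2 change of 0.011.

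The mutant arrays differed from each other more than the wild-type arrays did. Log2 differences over the members had an SD of 0.36 between the mutant arrays and 0.21 between the wild-type arrays, and over all genes the SDs were 0.34 and 0.31. The mutant pair was further apart in 40 of 53 members, and in 68.8% of all genes. The signed difference between the mutant arrays went with signal level, with a Pearson r of 0.34 over the members and 0.25 over all genes. That r sets the log2 signal against mutant replicate 1 minus mutant replicate 2. It does not measure how far apart the arrays were, and none is given for the wild-type pair. Below a signal of 800 the members' median of that difference did not rise with level. It was 0.12 below 100, 0.11 from 100 to 400 and 0.064 from 400 to 800. Over all genes it was 0.058, 0.17 and 0.28. Of the 10 members with a mean signal of at least 800, 9 were higher in mutant replicate 1 than in mutant replicate 2, with a median log2 difference of 0.45, and so were 232 of the 250 genes of that level, with a median of 0.47. The same members differed by a median of 0.038 between the wild-type arrays. For 8 of these 10 members, among them LYS20, ARO2, HOM6 and THR1, the sign of the change depended on which mutant array was left out, and for TRP5 and ASN2 it did not.

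**Figure D4:**
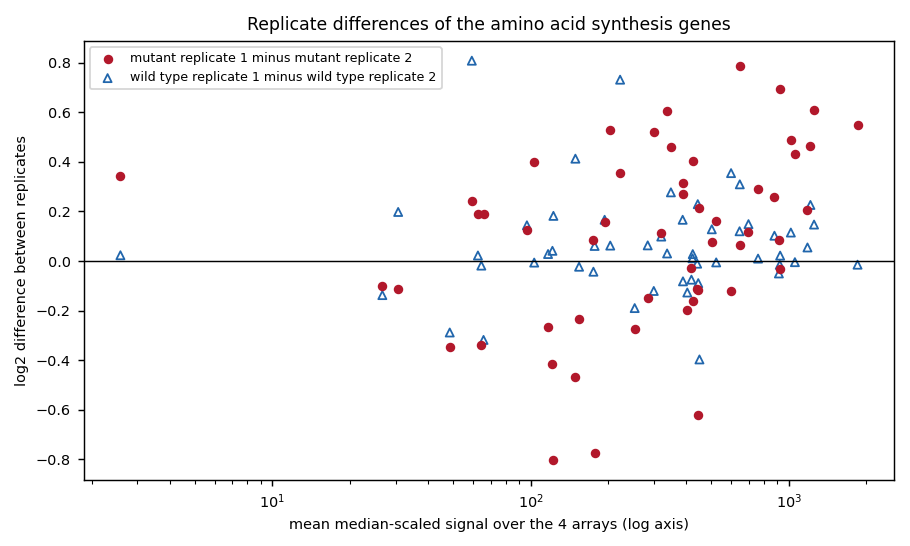
Log2 difference between the 2 arrays of a group (mutant filled, wild type open) for each of the 53 genes against its mean median-scaled signal (log axis). Filled points at a signal of 800 and above lie above 0 in 9 of 10 genes, while the open points there lie near 0.

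Genes of the same metabolism outside these pathways were taken from fixed lists, and each list is given with its genes of lowest and highest log2 change. None of 11 genes for glutamate, glutamine, aspartate, alanine and proline passed (median -0.0030, from -0.70 for PRO1 to 1.07 for PRO2, both of proline synthesis). None of 14 measured genes for translational control of GCN4 passed (median -0.050, from -0.42 for GCD7 to 1.08 for GCD1, both for subunits of eIF2B). The high values of PRO2 and GCD1 go with a low wild type replicate 2, since GCD1 gave 241 and 209.8 in the mutant arrays and 223 and 46.7 in the wild-type arrays, and PRO2 gave 762 and 473 in the mutant against 556 and 143 in wild type.

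None passed of 4 genes for glycine and one-carbon units (median 0.013, SHM2 -0.12 to SHM1 0.27), of 2 measured genes for other steps of vitamin B6 metabolism (BUD16 -0.47, PDX3 0.45) or of 2 transporter genes, LYP1 for lysine (-0.24) and OAC1 for oxaloacetate and isopropylmalate (-0.016). Of 5 other aromatic genes (median -0.048) none passed either. The decarboxylase gene ARO10, for breakdown of aromatic amino acids, had 0.74 (95% interval 0.33 to 1.15, adjusted p = 0.0749), and PHA2, for phenylalanine synthesis, had -0.40 (95% interval -0.78 to -0.026, adjusted p = 0.193).

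Of 21 permease and sensor genes 17 lay above 0 (median 0.11, where 52.1% of all genes lay above 0), and 1 rose, where 1.03% of all genes were called higher. This was SSY1, the sensor of external amino acids at the plasma membrane, with 34.6 and 33.3 in the mutant arrays and 13.1 and 15.3 in the wild-type arrays and a log2 change of 0.99 (95% interval 0.62 to 1.37, adjusted p = 0.0379). The lowest was the proline permease gene PUT4, with -0.33.

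Of 8 measured arginine synthesis genes ARG3 and ARG4 rose, with log2 changes of 0.96 and 0.86 (list median 0.78, where 1.03% of all genes were called higher, lowest ARG2 with 0.054). Of 15 sulfur and methionine genes MET2 (1.05), MET3 (0.92), SUL1 (0.90) and SUL2 (0.92) rose, and 13 lay above 0, against the same shares of all genes (median 0.78, from -0.55 for MET6 to 1.28 for MET1, neither called). The difference between these lists and the 53 genes was not tested, and these rises were known when the lists were drawn up. Of 6 galactose genes none passed (median 0.26, from -0.15 for GAL3 to 0.45 for GAL1).

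Genes next to the members were read as well. By their order in the R64 gene annotation, 99 neighbours were measured. They include members that stand beside another member, HIS7 beside ARO4 and SNZ1 beside SNO1. Of the 99 neighbours 2 passed, ATG33 beside ILV5 (log2 change 1.10) and CRG1 beside BAT1 (0.95), both higher, against 1.87% of all genes called in either direction, while ILV5 and BAT1 had 0.16 and 0.15. Beside HIS3, the neighbour MRM1 had 0.64 and DED1 had -0.31, and beside TRP1, GAL3 had -0.15 and SOK1 had -0.22, none called.

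**Figure D5:**
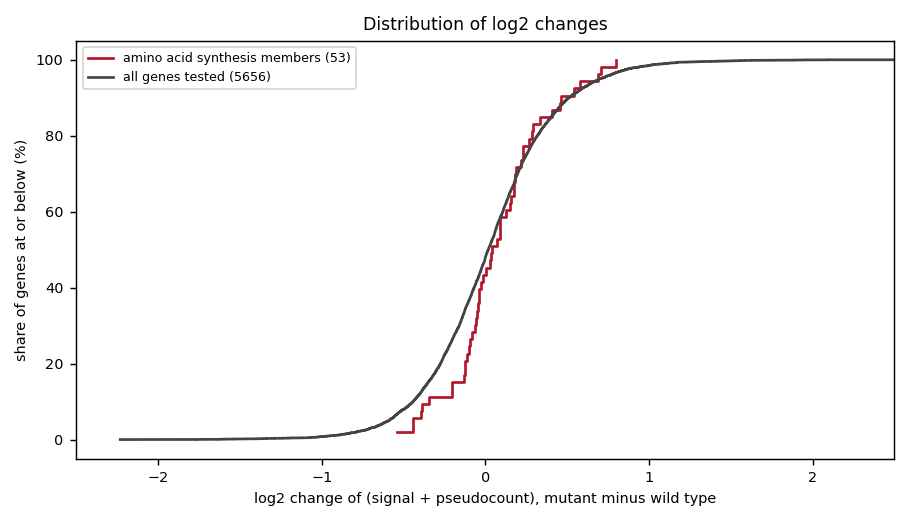
Share of genes (%) at or below each log2 change (mutant minus wild type) for the 53 amino acid synthesis genes and for all 5656 genes tested. The members run from -0.54 to 0.80 around a median of 0.041, inside the wider range of all genes around a median of 0.018. The members and all genes were not matched for signal level.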

How the data were processed

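The deposited values are MAS5 signal intensity values on a linear scale, per the submitters' processing notes, with no version given in the sources used here. Cells were harvested at an OD600 of 0.5 to 0.7 and about 20 ug of total RNA gave biotin-labelled cRNA, per the labels' protocols. Each array was scaled to the mean of the 4 medians over 9335 probe sets. The pseudocount is the 20th percentile of all scaled values. One probe set per gene was used, without a suffix for shared sequence where possible and then the brightest, and 6504 probe sets had 1 gene symbol. Groups came from the sample titles. Mutant minus wild type was fitted with limma 3.58.1 in R 4.3.3 (eBayes with trend, two-sided, no replicate block), adjusted by Benjamini-Hochberg over 5656 genes. The fit was also run on simulated data with noise drawn independently for each gene and array, and the outcome is not given here. No set test was made. Members and lists were chosen with earlier results of these data known. Every member is named. Arrays are given one by one for the extremes of each pathway, isoenzymes, GCN4, common markers and genes below the pseudocount. Of the other lists, called genes and the highest and lowest change are named. Promoter motifs were not analysed here. Alternatives changed the scaling, the pseudocount, the choice of probe set, the variance model or the threshold, removed dim genes, added a replicate block or left out each array.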

Additional observations from a re-analysis of the deposited data

How the results depend on the processing

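Among 18 alternatives the count of members called was 0 except for TRP1 (higher, 1 member) with 0.5 times the pseudocount, the robust variance, an adjusted p under 0.1 and without wild type replicate 2, and except for the settings that follow. On the values as deposited 1 member was called higher and 6 were called lower, beside 66 of all genes higher and 1065 lower. Leaving out wild type replicate 1 gave 3 higher (TRP1, SNZ1 and SNO1). With the replicate block 3 members were higher (TRP1, SNZ1 and SNO1), beside 425 of all genes higher and 283 lower. No label ties a replicate number to a common culture or day, and same-numbered arrays did not deviate together (r = -0.0156 over genes). With 2 arrays a group this r cannot show whether arrays were paired. Pairing is thus not known, and the block was not read as a paired design. Counts over all genes, 58 higher and 48 lower, were 38 higher with the trimmed mean, 92 higher with the filter on dim genes, 11 and 21 with all probe sets in the fit, 30 lower without the trend, 159 and 118 with robust variance, 249 and 206 at an adjusted p under 0.1, 1065 lower as deposited, and 0 to 196 higher and 0 to 85 lower with an array left out. The cause was not tested, except that a wider threshold calls more by construction. Fits on 3 arrays take the spread from the group that still has 2. The filter on dim genes removed TRP1, so its count of members called is out of 52.

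With an array left out the median of the members ran from 0.00096 to 0.13. Pathway medians ran over these ranges, aromatic -0.21 to 0.13, asparagine -0.037 to 0.17, histidine -0.027 to 0.22, isoleucine and valine 0.031 to 0.14, leucine -0.040 to 0.16, lysine -0.14 to 0.12, serine -0.20 to 0.082, threonine 0.074 to 0.34, tryptophan 0.22 to 0.44, vitamin B6 0.31 to 1.08. The isoleucine and valine median was 0.10 with quantile normalization, 0.10 with the trimmed mean and 0.054 as deposited relative to all genes. Uncalled changes of 25 members had the opposite sign in 37 of 953 results, at most 0.30 in size. Many of the 953 could not differ in sign. The threshold, variance model, replicate block and probe set choice left each member's log2 change as it was. So did the dim filter for the 52 members it kept, but it removed TRP1. The opposite sign was seen in 12 members without mutant replicate 1 and 12 without mutant replicate 2. It was seen in 3 without wild type replicate 1 and 4 without wild type replicate 2. With all arrays kept, the log2 changes of opposite sign were HIS7 0.0050, ARO2 -0.041 with quantile normalization, ARO2 -0.020 with the trimmed mean, and TRP2 -0.033, ARO2 -0.074, GCN4 -0.049 as deposited relative to all genes. With each array left out in turn, the changes ran over these ranges, ARO1 -0.22 to 0.57, ARO2 -0.30 to 0.31, ARO8 -0.13 to 0.30, GCN4 -0.075 to 0.13, HIS1 -0.21 to 0.048, HIS2 -0.28 to 0.037, HIS5 -0.041 to 0.22, HIS7 -0.25 to 0.22, HOM6 -0.36 to 0.10, ILV6 -0.16 to 0.53, LEU1 -0.77 to 0.00040, LEU3 -0.064 to 0.13, LEU9 -0.24 to 0.16, LYS2 -0.15 to 0.020, LYS20 -0.31 to 0.24, LYS21 -0.17 to 0.12, LYS4 -0.25 to 0.024, LYS5 -0.19 to 0.0034, LYS9 -0.061 to 0.21, SER1 -0.12 to 0.044, SER3 -0.18 to 0.62, SER33 -0.22 to 0.12, THR1 -0.30 to 0.18, TRP2 -0.058 to 0.14, TRP4 -0.086 to 0.44. With 2 arrays a group the intervals are wide, and TRP1 reads below the pseudocount on 3 of 4 arrays.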
